A study of Homo sapiens with 24 samples.

Results

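The response of RBPMS knockout cells to 6 h of mesoderm induction was followed through the genes expressed in HUES6, an established line of human embryonic stem cells kept in FTDA medium. The libraries were chosen by their labels: 3 of genotype RBPMS KO at 6 h (KO 6 h) and 3 of the same genotype at 0 h (KO 0 h), 6 of the 24 libraries in all. Induction used BMP4 at 1.5 ng/ml and CHIR at 1.5 µM, and the 0 h cells carry the treatment label control. KO cells at 3 h (KO 3 h) and 48 h, and wild-type HUES6 cells (WT) at 0, 3, 6 and 48 h, with 3 libraries each, were used where they bear on these 6. The labels do not say whether the KO cells were 1 clone, how the gene was disrupted, or whether the libraries of 1 group are separate cultures. The p-values then measure only the spread between these samples, which may be technical. Of 57820 genes in the table, 19835 had enough reads to be tested. Levels are in CPM, which are reads scaled to the same total in every library and not divided by gene length, and each is given for libraries 1, 2 and 3 of its group. Changes are log2 changes of CPM after scaling, with their standard error and an adjusted p from limma, and calls were made at an adjusted p below 0.05.

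BMP4 binds type I and type II receptors whose kinase phosphorylates SMAD1, SMAD5 and SMAD9. These enter the nucleus with SMAD4 and switch on genes such as the ID family, which encode inhibitors of basic helix-loop-helix factors. CHIR inhibits GSK3, the kinase that marks β-catenin for destruction, so that β-catenin accumulates and joins TCF and LEF factors at WNT target genes. In pluripotent cells the combined signals start the program of the primitive streak, the region of the embryo where mesoderm and endoderm arise. RBPMS encodes an RNA-binding protein of the RRM family.

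Both signals act through sequence motifs in DNA. The promoters of LEF1 and APCDD1, called members of the WNT target list, and of ID3 and MSX2, of the BMP target list, are shown because these genes had the largest rises of their lists among those with an entry in the table of promoters. NOTUM had no entry. The sequences are from RefSeq, build GRCh38.p14, from 250 bases before to 50 bases after the start, written 5′ to 3′ on the strand of the gene. Capitals mark GGCGCC, a motif bound by BMP SMAD proteins, which was searched on both strands along with CTTTGAT, a motif of TCF and LEF factors. The windows are chr4:108166252-108166551, minus strand, for LEF1, chr18:10454385-10454684, plus strand, for APCDD1, chr1:23559452-23559751, minus strand, for ID3, and chr5:174724332-174724631, plus strand, for MSX2.
LEF1: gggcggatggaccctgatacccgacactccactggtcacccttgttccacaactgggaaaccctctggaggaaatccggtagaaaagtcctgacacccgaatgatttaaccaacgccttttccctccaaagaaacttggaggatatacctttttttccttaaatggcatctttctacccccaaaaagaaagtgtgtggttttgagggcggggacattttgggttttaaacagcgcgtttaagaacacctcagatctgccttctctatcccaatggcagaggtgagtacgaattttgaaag
APCDD1: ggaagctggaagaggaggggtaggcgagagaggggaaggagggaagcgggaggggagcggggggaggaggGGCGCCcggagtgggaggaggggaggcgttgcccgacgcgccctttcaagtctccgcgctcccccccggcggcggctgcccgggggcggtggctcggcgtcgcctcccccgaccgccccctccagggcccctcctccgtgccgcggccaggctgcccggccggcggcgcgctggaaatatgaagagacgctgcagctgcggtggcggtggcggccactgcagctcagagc
ID3: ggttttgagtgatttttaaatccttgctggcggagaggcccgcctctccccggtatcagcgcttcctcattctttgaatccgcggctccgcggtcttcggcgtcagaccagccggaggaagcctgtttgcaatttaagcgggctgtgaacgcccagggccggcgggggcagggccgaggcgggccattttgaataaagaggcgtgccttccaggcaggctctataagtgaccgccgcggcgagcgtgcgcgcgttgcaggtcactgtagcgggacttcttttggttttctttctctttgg
MSX2: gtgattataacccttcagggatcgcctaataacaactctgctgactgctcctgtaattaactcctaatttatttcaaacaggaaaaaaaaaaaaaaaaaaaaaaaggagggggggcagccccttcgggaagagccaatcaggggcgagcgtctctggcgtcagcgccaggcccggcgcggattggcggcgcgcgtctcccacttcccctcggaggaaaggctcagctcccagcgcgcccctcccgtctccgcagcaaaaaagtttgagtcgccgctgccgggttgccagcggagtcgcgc
The APCDD1 window held 1 GGCGCC, which began at -180 relative to the start, and the LEF1, ID3 and MSX2 windows held neither motif. Among the 13327 promoters of tested genes in the table, 201 (1.5%) held CTTTGAT and 3905 (29.3%) held GGCGCC. Of the WNT targets called higher in KO 6 h, 5 of 11 had a promoter in the table, 1 of them with CTTTGAT and 2 with GGCGCC. Of the called BMP targets 11 of 12 had one, 0 with CTTTGAT and 2 (18.2%) with GGCGCC.

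The libraries held 29896358 to 50451908 reads, with 42668745, 46737473 and 29896358 in KO 6 h and 39529326, 40063493 and 38119546 in KO 0 h. Replicates of KO 6 h correlated at 0.9967 to 0.9973 and those of KO 0 h at 0.9952 to 0.9974 across genes on the log scale, whereas WT 0 h library 1, KO 3 h library 3 and WT 48 h library 3 stood apart from their replicates. KO 3 h and KO 6 h also stood apart from KO 0 h and KO 48 h in a set of genes: of 46 genes at 0.5 CPM or less in every KO 6 h library and at 5 CPM or more in every KO 0 h library, 33 were also at 0.5 CPM or less in every KO 3 h library, and 27 were at 5 CPM or more in every KO 48 h library. All of these conditions held for 21 genes. What this difference contributes to the results below was not tested. Pluripotent markers were high in both groups, with POU5F1 at 1798, 1897 and 1876 CPM in KO 6 h and 1768, 2044 and 2112 CPM in KO 0 h and LIN28A at 2627, 2716 and 2588 CPM in KO 6 h and 2699, 2764 and 2738 CPM in KO 0 h. Of the fibroblast and stroma markers, COL3A1, LUM and DCN stood at 0 to 0.0856 CPM in these 6 libraries, while THY1, COL1A1 and COL1A2 were higher, as given with their list. SOX17, an endoderm factor, had no read in any of them. In bulk samples fewer cells of a type and less RNA per cell cannot be told apart.

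The targeted gene, RBPMS (chr8:30384479-30572261 in GRCh38, plus strand), was still transcribed in the KO libraries and fell at 6 h. It had 101, 96.8 and 102 CPM in KO 6 h and 158, 153 and 153 CPM in KO 0 h, groups that did not overlap (-0.54 ± 0.082, adjusted p = 3.72e-06). Its level in KO 0 h was not below that of WT 0 h (155, 121 and 130.2 CPM), so the mRNA did not check the genotype label. RBPMS2, the paralog, rose slightly, with 95.7, 99.51 and 93.7 CPM in KO 6 h and 75.5, 79.02 and 82.1 CPM in KO 0 h (0.38 ± 0.12, adjusted p = 0.00808), a call that ended with upper-quartile factors (adjusted p = 0.0562). The change of RBPMS between hours was -0.21 in WT, and the difference between the KO and WT changes was not called (-0.33 ± 0.12, adjusted p = 0.0794).

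At 6 h, 6629 genes were called higher (33.4% of those tested) and 6965 lower (35.1%) in KO 6 h than in KO 0 h, together 68.5% of all tested genes. With a log2 change of at least 1 in size these were 2376 and 3333, together 28.8% of the tested genes, and with at least 2 they were 377 and 803. The median change over all tested genes was -0.016. For this comparison, shares of a gene list are read below against 33.4% and 35.1%. The largest rise by log2 change was that of CDX1 (chr5:150166795-150184558 in GRCh38), a caudal homeobox factor of posterior identity. It had 22.8, 21.6 and 21.9 CPM in KO 6 h and 0, 0.025 and 0 CPM in KO 0 h, from 2638 reads against 1 read, a ratio of 2603 with a 95% counting interval of 467 to 102845 (6.51 ± 0.15, adjusted p = 1.11e-19). The other genes with the largest rises stood under 11 CPM in every KO 0 h library.

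LINC01036, a long noncoding RNA, had 25.3, 25.5 and 26.1 CPM in KO 6 h and 0.0506, 0.125 and 0.0262 CPM in KO 0 h (6.44 ± 0.56, adjusted p = 9.17e-10). SLC1A4, a carrier of neutral amino acids, had 32.4, 34.5 and 31.9 CPM in KO 6 h and 0.354, 0.374 and 0.498 CPM in KO 0 h (5.74 ± 0.21, adjusted p = 3.34e-16), and the classical cadherin gene CDH6 had 32.5, 34.98 and 31.8 CPM in KO 6 h and 0.506, 0.524 and 0.682 CPM in KO 0 h (5.43 ± 0.17, adjusted p = 3.57e-17). No KO 0 h library reached 1 CPM for these 3 genes, and every KO 6 h library exceeded 25 CPM. CBLN1, a secreted synapse organiser, rose by a log2 change of 5.42 ± 0.28, adjusted p = 1.35e-13. Further members of the 12 largest rises were DHRS2 (5.25), DNAJC15 (5.16), SERPINB8 (5.13) and LRRTM3 (4.97), with ID3 and EOMES described with their pathways. LINC01036 averaged 31.1 CPM in KO 3 h and 0.0975 CPM in KO 48 h, and 2.43 CPM in WT 6 h and 1.41 CPM in WT 0 h. DNAJC15 averaged 8.35 CPM in KO 3 h and 1.495 CPM in KO 48 h, and 13.7 and 3.88 CPM in WT 6 h and WT 0 h. SLC1A4 rose in WT as well, from 0.988 to 33.7 CPM. What the difference between KO libraries of different hours contributes to these rises was not tested.

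**Figure D1:**
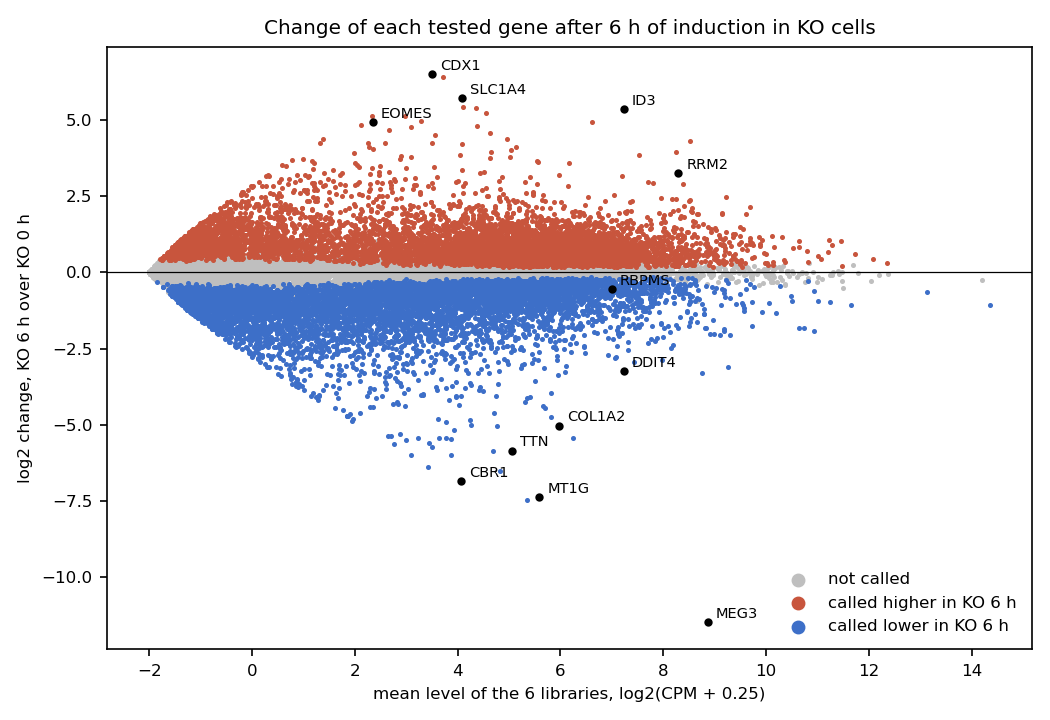
Each point is 1 of the 19268 tested genes with a symbol. The x axis is the mean level of the 6 libraries as log2(CPM + 0.25), and the y axis is the log2 change of KO 6 h over KO 0 h. Red points were called higher, blue points lower and grey points not called. Over all 19835 tested genes, with or without a symbol, 6629 were called higher and 6965 lower. The largest fall, that of MEG3 (-11.48), lies far below the next.

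Target genes of BMP signalling rose. Of 16 tested BMP target genes 12 were called higher and 0 lower (1 lower with upper-quartile factors or with CPM as deposited), with a median log2 change of 2.47, and in WT the counts were 12 and 1 with a median of 2.25. ID3 had 361, 263 and 251 CPM in KO 6 h and 5.67, 6.42 and 10.1 CPM in KO 0 h (5.37 ± 0.25, adjusted p = 2.18e-14). ID4 had 60.3, 63.4 and 61.5 CPM in KO 6 h and 3.26, 4.17 and 4.12 CPM in KO 0 h (4.01 ± 0.12, adjusted p = 1.85e-17), and ID2 had 81.8, 83.98 and 78.8 CPM in KO 6 h and 10.7, 11.7 and 11.7 CPM in KO 0 h (2.90 ± 0.11, adjusted p = 8.68e-16). All 3 are inhibitors of basic helix-loop-helix factors, and each was far higher in every KO 6 h library than in any KO 0 h library, with ID3 more variable at 6 h than the others. MSX2, a homeobox factor downstream of BMP, had 9.45, 8.66 and 8.46 CPM in KO 6 h and 0.253, 0.349 and 0.184 CPM in KO 0 h (4.24 ± 0.15, adjusted p = 1.49e-16).

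The components of the pathway moved in both directions, with 7 higher and 4 lower of 14 tested ligands, receptors and inhibitors called (median 0.49). GREM1, a secreted BMP inhibitor, had 14.2, 13.7 and 13.1 CPM in KO 6 h and 1.01, 0.774 and 0.63 CPM in KO 0 h (3.82 ± 0.21, adjusted p = 5.01e-13). FST, which binds activin and BMP ligands, rose (1.12 ± 0.11, adjusted p = 3.09e-09), as did SMAD1 (1.16 ± 0.11, adjusted p = 2.6e-09), a transducer of the signal. The ligand gene BMP4 fell instead, with 3.35, 3.70 and 2.91 CPM in KO 6 h and 8.78, 10.4 and 10.3 CPM in KO 0 h (-1.42 ± 0.12, adjusted p = 7.61e-10). For both GREM1 and BMP4 the groups did not overlap.

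Of 16 WNT feedback and target genes 11 were called higher and 2 lower, or 4 lower with only KO 6 h and KO 0 h in the fit (median 1.50, against 1.33 in WT). The secreted WNT inhibitor NOTUM had 5.25, 4.77 and 5.15 CPM in KO 6 h and 0.481, 0.524 and 0.656 CPM in KO 0 h (2.81 ± 0.17, adjusted p = 1.9e-12). LEF1, a partner of β-catenin whose promoter is printed above, had 5.91, 6.61 and 4.85 CPM in KO 6 h and 0.708, 0.923 and 0.603 CPM in KO 0 h (2.69 ± 0.18, adjusted p = 7.07e-12), and its relative TCF7 had 29.6, 31.4 and 28.9 CPM in KO 6 h and 10.4, 9.88 and 12.01 CPM in KO 0 h (1.55 ± 0.10, adjusted p = 6.41e-12). CCND1, the gene of cyclin D1, had 283, 282 and 265 CPM in KO 6 h and 99.85, 104 and 102 CPM in KO 0 h (1.52 ± 0.13, adjusted p = 4.3e-10). None of these groups overlapped. The members called lower were RNF43 (-2.58) and NKD2 (-1.15), both feedback inhibitors of WNT signalling, and AXIN2, another, stood at 22.9 ± 2.23 CPM in KO 6 h and 29.5 ± 1.25 CPM in KO 0 h (SD, n = 3 each) and was not called (-0.28 ± 0.19, adjusted p = 0.197). RNF43, NKD2 and AXIN2 are named here after their values were seen.

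Among WNT ligands and receptors the calls were 10 higher and 9 lower of 21, with a median of -0.25. The ligand gene WNT3 rose, with 8.79, 9.73 and 9.10 CPM in KO 6 h and 1.11, 0.874 and 1.08 CPM in KO 0 h (2.98 ± 0.20, adjusted p = 1.37e-11). WNT8A went the same way, with 1.69, 1.22 and 1.54 CPM in KO 6 h and 0, 0.025 and 0 CPM in KO 0 h (2.80 ± 0.15, adjusted p = 2.37e-13). Both ligand genes were under 1.5 CPM in every KO 0 h library. Receptor genes of the Frizzled family divided, FZD6 rising (1.20 ± 0.084, adjusted p = 2.14e-11) and FZD5 falling to 54.6, 56.7 and 55.9 CPM in KO 6 h, against 124, 119 and 109.7 CPM in KO 0 h (-0.98 ± 0.075, adjusted p = 9.93e-11).

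Of 10 tested primitive streak factors 3 were called higher, a smaller share than the 33.4% of all tested genes, and 2 lower (median -0.068). EOMES, TBXT and EVX1 rose, and MIXL1, GSC, MESP1, FOXA2 and MSGN1 were not called. CDX2, like CDX1 a caudal factor, had 4.95, 5.37 and 3.91 CPM in KO 6 h and 0, 0 and 0 CPM in KO 0 h, at least 62.01-fold higher against the floor of 3 reads per library. Of the 6 tested caudal and HOX genes 3 were called higher and 1, HOXB1, lower (-0.49 ± 0.21, adjusted p = 0.0396), a call lost in edgeR (adjusted p = 0.0643) and DESeq2 (adjusted p = 0.0574). EOMES (chr3:27715949-27722711 in GRCh38), a T-box factor of the streak, had 8.86, 11 and 8.86 CPM in KO 6 h and 0.177, 0.0998 and 0 CPM in KO 0 h (4.95 ± 0.14, adjusted p = 2.93e-18). TBXT, the Brachyury gene, had 3.09, 2.89 and 2.84 CPM in KO 6 h and 0.0253, 0 and 0 CPM in KO 0 h, a ratio of 347 with a counting interval of 61.9 to 13756. Every KO 6 h library held reads of both T-box genes, while KO 0 h held at most 0.177 CPM of EOMES and 1 read of TBXT in all.

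EVX1, a homeobox factor of the posterior streak, reached 1.36, 1.22 and 1.20 CPM in KO 6 h and had no read in KO 0 h. It was at least 16.5-fold higher against the floor. The streak factors called lower were MESP2 (-1.04) and TBX6, a T-box gene of presomitic mesoderm (0.984, 0.535 and 0.602 CPM in KO 6 h and 3.24, 3.29 and 3.80 CPM in KO 0 h, -1.91 ± 0.27, adjusted p = 1.39e-06). MIXL1, another early streak marker, was not called, at 1.01, 1.20 and 1.17 CPM in KO 6 h and 1.29, 1.55 and 1.15 CPM in KO 0 h (-0.12 ± 0.16, adjusted p = 0.511). The streak genes together summed to 14.8 to 16.9 CPM in KO 6 h and 5.08 to 5.77 CPM in KO 0 h.

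**Figure D2:**
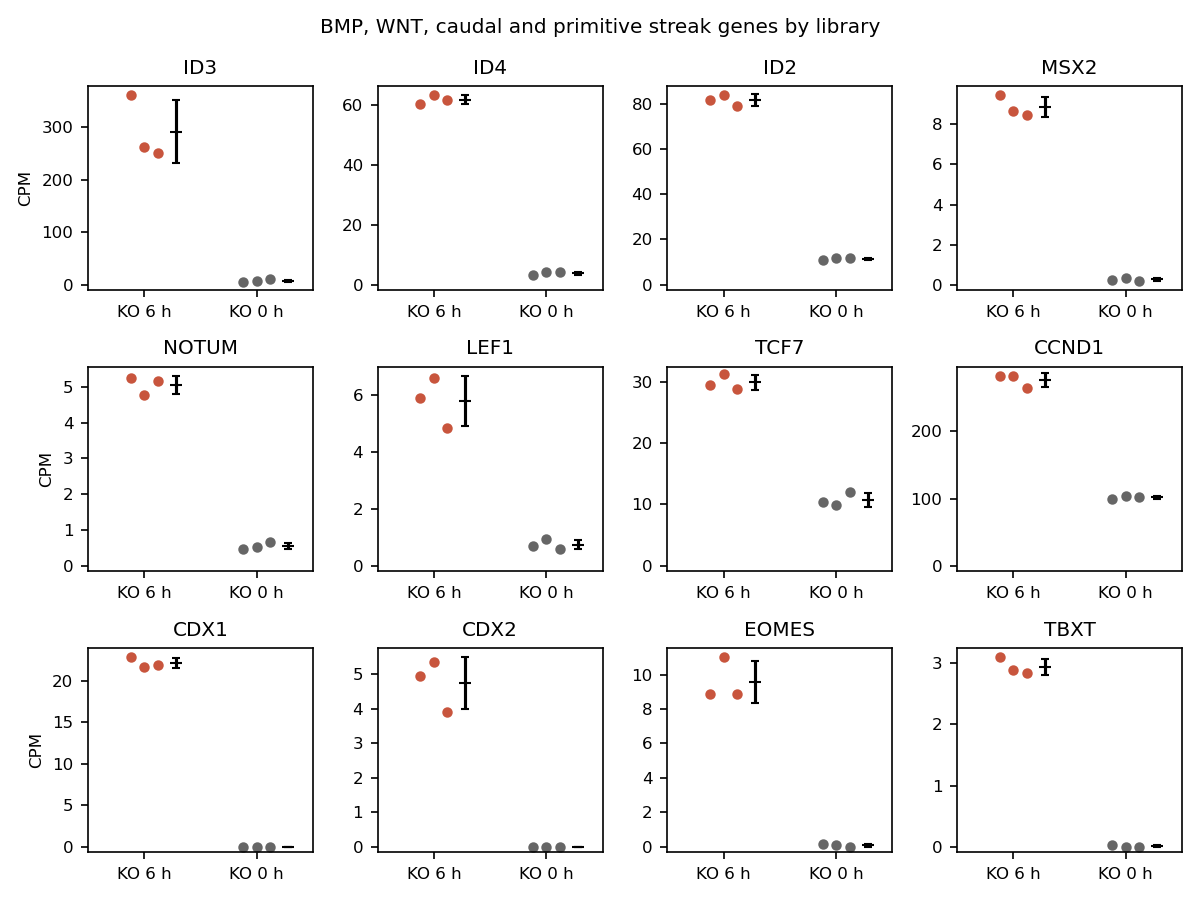
CPM of 12 genes of the BMP, WNT, caudal and primitive streak groups, with 1 point per library (KO 6 h left, KO 0 h right) and the mean and SD of each group as a bar. In every panel the 3 KO 6 h libraries lie above the 3 KO 0 h libraries, and CDX2 had no read in KO 0 h.

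Markers of other lineages moved in both directions. TFAP2A, a factor of surface ectoderm, trophoblast and amnion, had 8.48, 8.88 and 7.19 CPM in KO 6 h and 0.0506, 0.0749 and 0.0525 CPM in KO 0 h (4.84 ± 0.19, adjusted p = 1.34e-15). The keratin genes KRT8 (1.16 ± 0.10, adjusted p = 5.15e-10) and KRT18 (1.02 ± 0.11, adjusted p = 1.86e-08) rose too, within an amnion and trophoblast list of 4 higher and 2 lower of 8. The members called lower were the keratin gene KRT7 (-1.07 ± 0.21, adjusted p = 8.27e-05) and TFAP2C, a relative of TFAP2A (-0.34 ± 0.08, adjusted p = 0.000693). TFAP2C was called higher in WT (0.30), and its changes in KO and WT were called different (-0.64, adjusted p = 0.00062). Among definitive endoderm factors (4 higher and 1 lower of 8) PRDM1, a repressor with several roles in the early embryo, had 6.73, 7.28 and 6.19 CPM in KO 6 h and 0.734, 0.699 and 0.84 CPM in KO 0 h (2.88 ± 0.15, adjusted p = 2.18e-13), while CXCR4 fell (-1.97 ± 0.19, adjusted p = 6.56e-09). KDR, the VEGF receptor that marks early vascular mesoderm, was already high before induction and fell to 57.1, 58.6 and 55.3 CPM in KO 6 h, against 481, 432 and 428 CPM in KO 0 h (-2.88 ± 0.13, adjusted p = 1.25e-14). Of 12 tested cardiac and lateral plate genes 3 were called higher, among them MEIS2 (1.36) and NKX2-5 (0.89), both under 1 CPM, and 2 lower, KDR and SNAI3 (-1.20).

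Genes of the NODAL and activin pathway divided (6 higher and 5 lower of 17). The ligand gene NODAL had 32.2, 31.6 and 30.1 CPM in KO 6 h and 6.65, 7.31 and 8.29 CPM in KO 0 h (2.13 ± 0.23, adjusted p = 3.4e-08). CER1, a secreted inhibitor of NODAL, had 8.95, 10.5 and 9.80 CPM in KO 6 h and 0.961, 0.724 and 0.761 CPM in KO 0 h (3.32 ± 0.10, adjusted p = 9.83e-18). In each the groups were clearly apart. The co-receptor gene TDGF1 fell to 639.6, 627 and 639.5 CPM in KO 6 h, against 1702, 1719 and 1687 CPM in KO 0 h (-1.33 ± 0.086, adjusted p = 4.96e-12). LEFTY1, a feedback inhibitor, was lower as well (-2.27 ± 0.32, adjusted p = 1.25e-06). The pathway list summed to 1694 to 1717 CPM in KO 6 h and 2927 to 3108 CPM in KO 0 h.

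FGF receptors and the feedback genes of ERK, the kinase below them, moved both ways. FGFR3 had 45.2, 43.5 and 40.1 CPM in KO 6 h and 12.3, 14.9 and 16.3 CPM in KO 0 h (1.65 ± 0.13, adjusted p = 2.92e-10). FGFR2 had 56.6, 60.6 and 51.5 CPM in KO 6 h and 179, 160.5 and 158 CPM in KO 0 h (-1.47 ± 0.14, adjusted p = 3.9e-09) and FGFR1 243, 234 and 238 CPM in KO 6 h and 383, 383 and 394 CPM in KO 0 h (-0.61 ± 0.14, adjusted p = 0.000593). FGFR3 thus rose while FGFR1 and FGFR2 fell. FGFR4 was not called (-0.16 ± 0.17, adjusted p = 0.411), and the FGF list gave 1 higher and 3 lower of 9. Of 12 ERK feedback and ETV genes 5 were called higher and 5 lower. DUSP6, an ERK phosphatase, had 62.1, 66.9 and 59.2 CPM in KO 6 h and 14.5, 12.03 and 12.7 CPM in KO 0 h (2.33 ± 0.22, adjusted p = 3.84e-09), and DUSP5 rose (1.02 ± 0.13, adjusted p = 2.18e-07). SPRY1 (-1.41 ± 0.10, adjusted p = 2.3e-11) and the ETS factor gene ETV1 (-1.23 ± 0.11, adjusted p = 6.88e-10) fell.

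Of 27 immediate early genes, which respond to growth factors without new protein synthesis, 14 were called higher and 4 lower (median 0.79). FOSL1, of the AP-1 factors, had 47.2, 46.2 and 46.1 CPM in KO 6 h and 2.43, 3.17 and 3.23 CPM in KO 0 h (3.97 ± 0.16, adjusted p = 2.32e-15). IER3 had 19.7, 18.5 and 16.4 CPM in KO 6 h and 3.64, 3.64 and 3.80 CPM in KO 0 h (2.31 ± 0.16, adjusted p = 2.86e-11). BTG2, an antiproliferative gene, rose (1.78 ± 0.10, adjusted p = 3.8e-13), as did SRF, the serum response factor (1.22 ± 0.091, adjusted p = 6.88e-11). SRF also belongs to the contractile and actin list, where 14 of 20 were called higher and 3 lower (median 0.70). In that list MYL9, a myosin light chain, had 54.2, 50.8 and 51.9 CPM in KO 6 h and 15.96, 19.3 and 19.1 CPM in KO 0 h (1.61 ± 0.12, adjusted p = 3.94e-11), and CNN2, a calponin, 740.5, 739 and 740.0 CPM in KO 6 h and 331, 373 and 369 CPM in KO 0 h (1.14 ± 0.072, adjusted p = 3.7e-12). TPM4, a tropomyosin, rose as well (0.92 ± 0.092, adjusted p = 7.82e-09).

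Genes of stress responses, ribosome assembly, sterol synthesis and the cell cycle were called higher more often than the 33.4% of all tested genes. In the integrated stress and unfolded protein response 18 of 20 were called higher and 1 lower, the lipoprotein receptor gene VLDLR (-1.06), with a median of 1.41. ATF5, a bZIP factor of this response, had 62.2, 59.8 and 58.7 CPM in KO 6 h and 4.02, 4.79 and 4.28 CPM in KO 0 h (3.80 ± 0.17, adjusted p = 6.93e-15). TRIB3, a pseudokinase gene downstream of ATF4 and CHOP, had 39.9, 42.6 and 40.2 CPM in KO 6 h and 4.02, 3.67 and 5.04 CPM in KO 0 h (3.29 ± 0.17, adjusted p = 1.35e-13), and XBP1, a factor of the endoplasmic reticulum branch, 138, 143 and 141 CPM in KO 6 h and 39.2, 46.6 and 46.3 CPM in KO 0 h (1.76 ± 0.10, adjusted p = 2.67e-13). The list summed to 5272 to 5392 CPM in KO 6 h and 2528 to 2761 CPM in KO 0 h. HERPUD1, which acts in endoplasmic reticulum degradation, rose too (1.86 ± 0.14, adjusted p = 8.5e-11).

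Of 29 ribosome biogenesis genes 25 were called higher and 0 lower, or 1 lower with upper-quartile factors (median 1.06). NOP58, a core protein of box C/D particles, had 373, 382 and 379 CPM in KO 6 h and 99.95, 103 and 105 CPM in KO 0 h (1.97 ± 0.12, adjusted p = 2.03e-12). MRTO4, needed for large subunit assembly, had 129, 128 and 124 CPM in KO 6 h and 34.8, 37.99 and 39.7 CPM in KO 0 h (1.84 ± 0.11, adjusted p = 7.72e-13), and DKC1, the dyskerin gene, 354, 362 and 348 CPM in KO 6 h and 180.2, 182 and 189.8 CPM in KO 0 h (1.03 ± 0.067, adjusted p = 5.49e-12). PPAN rose most in this list (2.16 ± 0.14, adjusted p = 4.26e-12). The 78 genes of ribosomal proteins themselves gave 6 calls higher and 2 lower, with a median of -0.00021. Those with the smallest adjusted p were RPS10 (1.93), RPL26 (0.95), RPL37 (-0.65) and RPS15 (0.91). They are uncertain, since ribosomal protein genes share reads with many processed pseudogenes. The number of calls in this list depended on the fit, with 20 higher and 12 lower when only KO 6 h and KO 0 h entered it.

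Cholesterol synthesis genes gave 16 higher and 2 lower of 21 (median 1.01). HMGCS1, the cytosolic HMG-CoA synthase, had 590.5, 577 and 605 CPM in KO 6 h and 162, 156 and 159 CPM in KO 0 h (1.98 ± 0.13, adjusted p = 1.12e-11). IDI1, an isomerase of the same pathway, rose (1.94 ± 0.13, adjusted p = 6.37e-12).

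Cell cycle genes were called higher in 21 of 32 and lower in 6 (median 0.57). RRM2, a subunit of ribonucleotide reductase, had 566, 567 and 550.2 CPM in KO 6 h and 56.3, 63.1 and 67.6 CPM in KO 0 h (3.26 ± 0.14, adjusted p = 9.44e-15). CDC6, which loads the replicative helicase, had 262, 269 and 258 CPM in KO 6 h and 66.1, 70.1 and 68.3 CPM in KO 0 h (2.03 ± 0.093, adjusted p = 1.6e-14). The helicase genes MCM5 (1.81 ± 0.10, adjusted p = 4.59e-13) and MCM7 (1.43 ± 0.079, adjusted p = 4.37e-13) rose, all of them genes of DNA replication. The members called lower were AURKB (-0.30), PLK1 (-0.34), AURKA (-0.39), CCND2 (-0.77), BUB1 (-0.999) and TOP2A (-1.27), most of which act in mitosis. These 6 are named after their values were seen.

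Of 23 p53 target genes 16 were called higher and 3 lower (median 0.57, against 0.57 in WT). CDKN1A, the cyclin-dependent kinase inhibitor p21, had 83.6, 86.1 and 76.6 CPM in KO 6 h and 12.8, 17.6 and 19.6 CPM in KO 0 h (2.39 ± 0.15, adjusted p = 4.2e-12). MDM2, the ubiquitin ligase of p53, had 500.1, 518 and 494 CPM in KO 6 h and 156, 148 and 142 CPM in KO 0 h (1.85 ± 0.13, adjusted p = 2.53e-11), and TIGAR, a phosphatase of sugar metabolism, 48.4, 51.3 and 50.2 CPM in KO 6 h and 8.20, 9.01 and 8.87 CPM in KO 0 h (2.58 ± 0.15, adjusted p = 7.83e-13). In all 3 every KO 6 h library was above every KO 0 h library. DDB2, of nucleotide excision repair, fell (-1.18 ± 0.10, adjusted p = 1.01e-09).

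**Figure D3:**
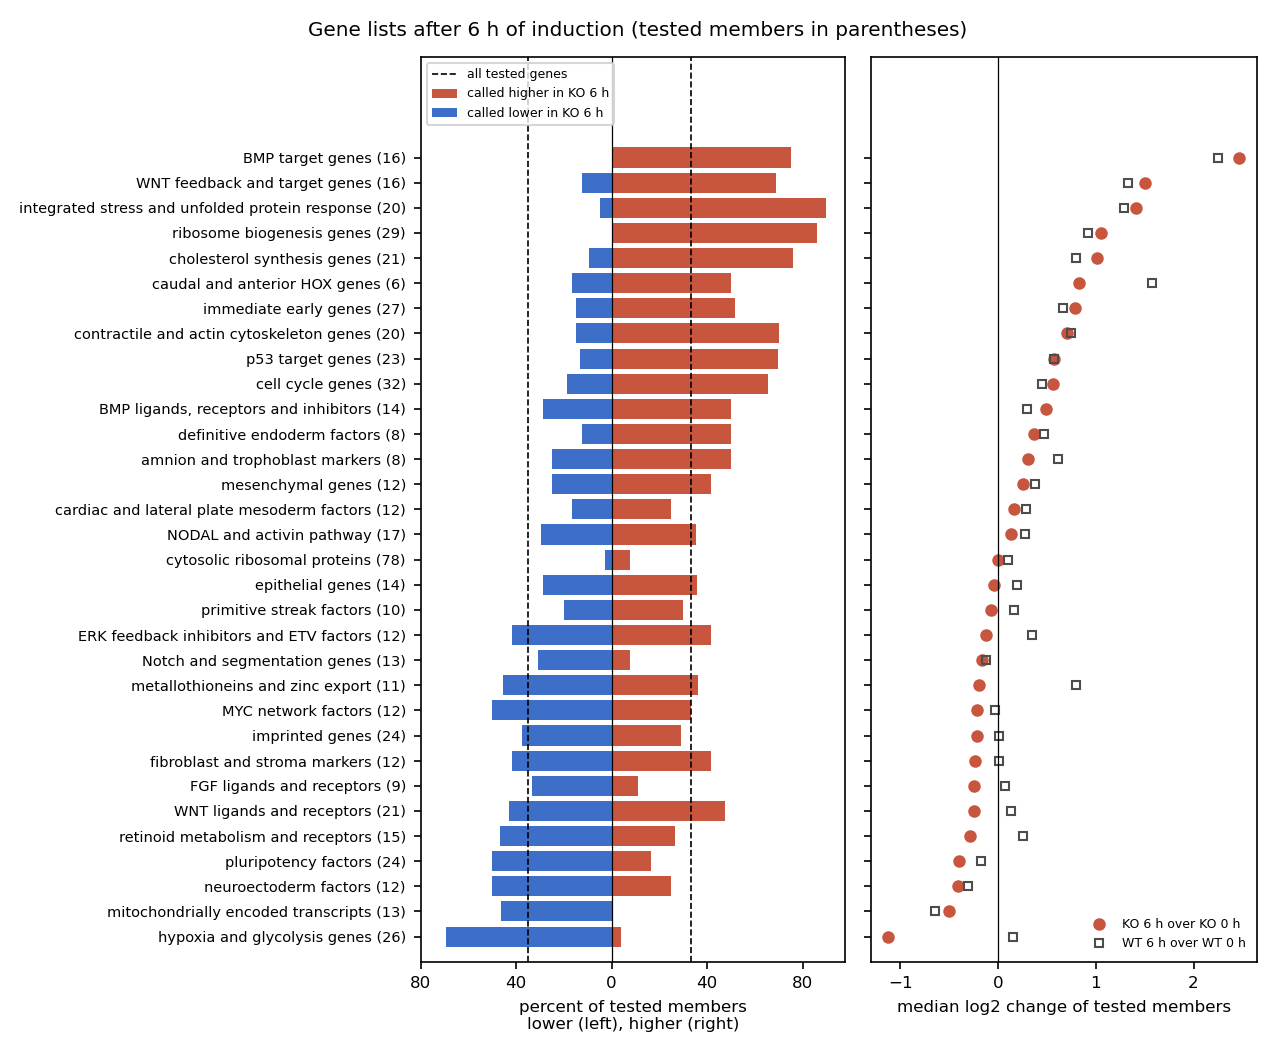
For each of 32 gene lists, the left panel shows the percent of tested members called higher (red, to the right) and lower (blue, to the left) in KO 6 h, with dashed lines at the shares of all tested genes (33.4% and 35.1%). The right panel shows the median log2 change of the list in KO (red points) and in WT (open squares), which differ by more than 1 for the hypoxia and glycolysis list (-1.12 in KO and 0.15 in WT).

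The lowest median of the 32 lists was that of the hypoxia and glycolysis genes (-1.12), of which 1 of 26, ADM (0.67), was called higher and 18 lower. DDIT4, an inhibitor of mTORC1, had 27.1, 29.4 and 24.7 CPM in KO 6 h and 249.7, 279 and 289 CPM in KO 0 h (-3.23 ± 0.19, adjusted p = 1.12e-12). PFKFB4, which sets the level of fructose 2,6-bisphosphate, had 11.3, 12.4 and 12.2 CPM in KO 6 h and 129.6, 120.3 and 123 CPM in KO 0 h (-3.27 ± 0.15, adjusted p = 1.83e-14). HK2, a hexokinase, had 116, 118 and 114 CPM in KO 6 h and 296, 281 and 270.0 CPM in KO 0 h (-1.19 ± 0.092, adjusted p = 1.19e-10). Every KO 6 h library was below every KO 0 h library in these genes, and ANKRD37 fell as well (-3.31 ± 0.18, adjusted p = 3.84e-13). The list summed to 9287 to 9519.6 CPM in KO 6 h and 15720.5 to 16074 CPM in KO 0 h. In WT 7 were called higher and 8 lower (median 0.15), and the KO change was called below the WT change in 16 genes and above it in 0, where 5.46% and 3.12% of all tested genes were called. That count was 8 with only the 4 groups of the contrast in the fit. The WT 0 h libraries themselves summed to 6889 to 16976 CPM over this list. KO 0 h lay within that range.

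Pluripotency factors gave 4 higher and 12 lower of 24 (median -0.40). POU5F1 (0.0032 ± 0.11, adjusted p = 0.983) and LIN28A (0.039 ± 0.092, adjusted p = 0.721) were not called, and SOX2 had 216, 230.4 and 204 CPM in KO 6 h and 311, 342 and 336 CPM in KO 0 h (-0.52 ± 0.11, adjusted p = 0.000279). NANOG had 83.5, 81.2 and 81.2 CPM in KO 6 h and 192, 176 and 168 CPM in KO 0 h (-1.03 ± 0.11, adjusted p = 1.53e-08). SOX2 and NANOG thus fell. The largest falls of the list were those of DPPA2, with 4.71, 5.24 and 4.68 CPM in KO 6 h and 50.1, 51.4 and 51.1 CPM in KO 0 h (-3.23 ± 0.09, adjusted p = 2.93e-18), and ZFP42, the REX1 gene, with 30.9, 30.4 and 30.3 CPM in KO 6 h and 213, 210.3 and 211 CPM in KO 0 h (-2.70 ± 0.18, adjusted p = 9.53e-12). Reads of POU5F1 and NANOG could be shared with their processed pseudogenes. USP44, a deubiquitinase, fell (-1.01 ± 0.086, adjusted p = 5.33e-10). KLF5 rose, with 21.1, 20.5 and 19.6 CPM in KO 6 h and 7.97, 7.71 and 6.61 CPM in KO 0 h (1.52 ± 0.11, adjusted p = 3.23e-11), and so did L1TD1, an RNA-binding protein of stem cells (0.85 ± 0.10, adjusted p = 4.93e-08).

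Of 12 tested neuroectoderm factors 3 were called higher and 6 lower. OTX2, a head homeobox factor, had 8.44, 9.63 and 8.63 CPM in KO 6 h and 46.98, 49.4 and 44.1 CPM in KO 0 h (-2.28 ± 0.14, adjusted p = 2.21e-12). SOX11 (-1.08 ± 0.087, adjusted p = 2.34e-10) and POU3F1 (-1.43 ± 0.17, adjusted p = 1.69e-07) fell, and SOX3 rose, with 13.6, 12.8 and 11.8 CPM in KO 6 h and 3.54, 4.37 and 4.93 CPM in KO 0 h (1.61 ± 0.17, adjusted p = 2.07e-08). Ligands of the Notch pathway fell furthest in its list (1 higher and 4 lower of 13): DLL1 had 0.305, 0.492 and 0.335 CPM in KO 6 h and 10.3, 10.6 and 10.9 CPM in KO 0 h (-4.07 ± 0.27, adjusted p = 6.65e-12), and DLL3 had 3.35, 3.19 and 2.11 CPM in KO 6 h and 23.9, 25.2 and 27.5 CPM in KO 0 h (-2.98 ± 0.27, adjusted p = 2.03e-09). NOTCH3 (-1.03 ± 0.17, adjusted p = 1.06e-05) and JAG2 (-1.41 ± 0.23, adjusted p = 1.09e-05) fell too, and the 1 member called higher was HES4 (1.73).

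Retinoid genes gave 4 higher and 7 lower of 15. DHRS3, a retinaldehyde reductase, had 6.42, 4.47 and 4.21 CPM in KO 6 h and 23.6, 25.5 and 24.9 CPM in KO 0 h (-2.18 ± 0.14, adjusted p = 4.13e-12), the receptor RARG fell (-1.45 ± 0.14, adjusted p = 7.37e-09), and RDH10, which makes retinaldehyde, rose (1.59 ± 0.18, adjusted p = 3.81e-08). Among MYC network factors (4 higher and 6 lower of 12) MYCL had 5.62, 5.97 and 4.62 CPM in KO 6 h and 28.1, 29.98 and 28.9 CPM in KO 0 h (-2.29 ± 0.10, adjusted p = 1.23e-14) and MXI1 7.45, 7.04 and 8.60 CPM in KO 6 h and 50.3, 45.2 and 43.9 CPM in KO 0 h (-2.47 ± 0.21, adjusted p = 5.93e-10), and MYC itself fell (-0.79 ± 0.092, adjusted p = 7.92e-08). The 4 calls higher in this list included MLX (0.44) and numbered 1 with upper-quartile factors or with CPM as deposited. Epithelial and mesenchymal genes moved both ways, with 5 higher and 4 lower of 14 and 5 higher and 3 lower of 12. In the first list OCLN, of tight junctions, rose (1.05 ± 0.068, adjusted p = 5.45e-12) and PKP2, of desmosomes, fell (-1.29 ± 0.10, adjusted p = 7.22e-11). In the second VIM had 24.5, 24.7 and 24.1 CPM in KO 6 h and 73.95, 85.1 and 85.1 CPM in KO 0 h (-1.64 ± 0.13, adjusted p = 1.09e-10), and MMP2 rose (1.43 ± 0.17, adjusted p = 9.28e-08).

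Of the 13 mitochondrially encoded transcripts 6 were called lower and 0 higher (median -0.50, against -0.65 in WT). MT-ND5, a subunit of complex I, had 1779, 1294 and 1664 CPM in KO 6 h and 3605, 3102 and 3044 CPM in KO 0 h (-0.96 ± 0.19, adjusted p = 0.000138). The list summed to 22019.8 to 30319.8 CPM in KO 6 h and 38394 to 42855 CPM in KO 0 h. With array weights 11 were called lower. What this shift contributes to the other results was not tested.

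The largest falls were of genes that were close to silent at 6 h. MEG3 (chr14:100779410-100861031 in GRCh38), a long noncoding RNA of an imprinted locus, had 0.0938, 0.0214 and 0.1 CPM in KO 6 h and 998, 890.2 and 898 CPM in KO 0 h (-11.48 ± 0.27, adjusted p = 2.42e-19). MEG9, from the same imprinted cluster on chromosome 14, had 0.0234, 0.0214 and 0.0669 CPM in KO 6 h and 10.9, 10.9 and 13.9 CPM in KO 0 h (-5.38 ± 0.41, adjusted p = 7.46e-11), and NNAT, an imprinted gene of chromosome 20, 0.0234, 0.0642 and 0.0335 CPM in KO 6 h and 3.16, 3.10 and 3.15 CPM in KO 0 h (-3.52 ± 0.19, adjusted p = 3.78e-13). In WT at 6 h MEG3 averaged 91.4 CPM and NNAT 4.64 CPM. Imprinted genes as a list gave 7 higher and 9 lower of 24, close to the shares of all genes. ZDBF2, another of them, fell to 52.6, 52.3 and 52.05 CPM in KO 6 h, against 209, 162 and 142 CPM in KO 0 h (-1.59 ± 0.12, adjusted p = 1.38e-10).

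Zinc finger genes, 3 of them on chromosome 19, were among the largest falls. ZNF558 (chr19:8806170-8832328 in GRCh38) had 0, 0 and 0 CPM in KO 6 h and 22.03, 19.3 and 21.3 CPM in KO 0 h, at least 267-fold lower against the floor of 3 reads per library. ZNF844 had 0.164, 0.15 and 0.234 CPM in KO 6 h and 28.97, 28.7 and 27.6 CPM in KO 0 h (-6.01 ± 0.15, adjusted p = 7.33e-19), and ZNF562 had 0.633, 0.406 and 0.736 CPM in KO 6 h and 55.9, 49.7 and 46.4 CPM in KO 0 h (-5.87 ± 0.16, adjusted p = 2.27e-18). ZNF22, on chromosome 10, had 0.305, 0.385 and 0.335 CPM in KO 6 h and 54.8, 57.8 and 55.9 CPM in KO 0 h (-6.52 ± 0.13, adjusted p = 2.57e-20). All 4 encode zinc finger proteins, and at 48 h the KO means were 17.4, 27.1, 42.5 and 67.3 CPM. The carbonyl reductase gene CBR1 followed the same course, with 0.0234, 0.0428 and 0.0335 CPM in KO 6 h and 29.5, 32.4 and 36.8 CPM in KO 0 h (-6.85 ± 0.16, adjusted p = 2.94e-19) and 70.4 CPM at 48 h.

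CTSF, a lysosomal protease gene, had 0.0469, 0 and 0 CPM in KO 6 h and 11, 13.6 and 14.6 CPM in KO 0 h, a ratio of 779 of KO 0 h over KO 6 h from 2 reads at 6 h (95% counting interval 215 to 6437). The pseudogene FAR2P2 had 0, 0 and 0.0335 CPM in KO 6 h and 17.2, 15.5 and 16.6 CPM in KO 0 h, and NAP1L6P had 0.117, 0.15 and 0.201 CPM in KO 6 h and 21.9, 23.1 and 20.8 CPM in KO 0 h (-5.73 ± 0.14, adjusted p = 6.46e-19). Both are uncertain because they resemble expressed genes. The metallothionein gene MT1G had 0.258, 0.406 and 0.234 CPM in KO 6 h and 87.6, 93.8 and 104 CPM in KO 0 h (-7.39 ± 0.22, adjusted p = 1.02e-17), and its neighbour MT1H, 0, 0.0428 and 0 CPM in KO 6 h and 5.36, 5.39 and 6.17 CPM in KO 0 h (-4.46 ± 0.30, adjusted p = 9.84e-12). MT2A of the same family rose, with 148, 138 and 153 CPM in KO 6 h and 45.99, 52.8 and 55.1 CPM in KO 0 h (1.60 ± 0.24, adjusted p = 3.1e-06), within a list of 4 higher and 5 lower of 11. Reads of these small, near-identical genes may be split between them, so the single genes are uncertain. TTN, the gene of the giant muscle protein titin, varied between the KO 0 h libraries, with 0.656, 0.706 and 0.97 CPM in KO 6 h and 96.9, 55.2 and 43.6 CPM in KO 0 h (-5.86 ± 0.52, adjusted p = 1.08e-09).

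COL1A2 (chr7:94394561-94431232 in GRCh38), a chain of type I collagen, had 3.35, 3.17 and 3.28 CPM in KO 6 h and 123, 121 and 119.8 CPM in KO 0 h (-5.03 ± 0.17, adjusted p = 5.93e-17), and COL1A1, the other chain, 47.4, 43.4 and 41.4 CPM in KO 6 h and 264, 282 and 280.3 CPM in KO 0 h (-2.55 ± 0.20, adjusted p = 1.85e-10). Both collagen genes belong to the fibroblast and stroma list, in which 5 of 12 were called higher and 5 lower, and which summed to 913 to 929 CPM in KO 6 h and 979 to 1028 CPM in KO 0 h. TAGLN, an actin-binding protein, had 281, 273 and 279 CPM in KO 6 h and 53.7, 59.2 and 61.1 CPM in KO 0 h (2.34 ± 0.19, adjusted p = 1.95e-10), and PDGFRB rose (1.39 ± 0.15, adjusted p = 2.26e-08). THY1, a surface protein of fibroblasts that stem cells also carry, had 392, 389 and 414 CPM in KO 6 h and 244, 252 and 261 CPM in KO 0 h (0.75 ± 0.20, adjusted p = 0.00254), whereas COL3A1, LUM and DCN were near 0 in both groups. What fibroblasts contribute to these values was not tested.

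By thresholds of 0.5 and 5 CPM in every library, 46 genes were off and 12 on in KO 6 h against KO 0 h, while the same rule gave 3 off and 9 on in WT 6 h against WT 0 h. Of the 12 genes that were on, all were at 5 CPM or more in every KO 3 h library, 9 averaged 5 CPM or more in WT 6 h, and 5 were at 0.5 CPM or less in every KO 48 h library. Of the 46 that were off, 16 averaged 5 CPM or more in WT 6 h. MGMT, a DNA repair gene, averaged 0.0301 CPM in KO 6 h and 6.25 CPM in KO 0 h, and 7.27 CPM in WT 6 h. CFLAR, an inhibitor of caspase 8, averaged 0.194 CPM in KO 6 h and 9.54 CPM in KO 0 h, and 4.33 CPM in WT 6 h. Genes named ZNF with a number made up 8 of the 46 (17.4%), against 495 of the 19268 tested genes with a symbol (2.57%). Over all 495 tested ZNF genes, 210 were called higher and 152 lower in KO, and 231 and 125 in WT. MGMT, CFLAR and the ZNF group are named after their values were seen. The promoters of 28 of the 45 off genes with a symbol were in the RefSeq table, where 8 (28.6%) held GGCGCC and the median number of CG pairs was 24.5, against 29.3% and 25 over the promoters of all tested genes.

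**Figure D4:**
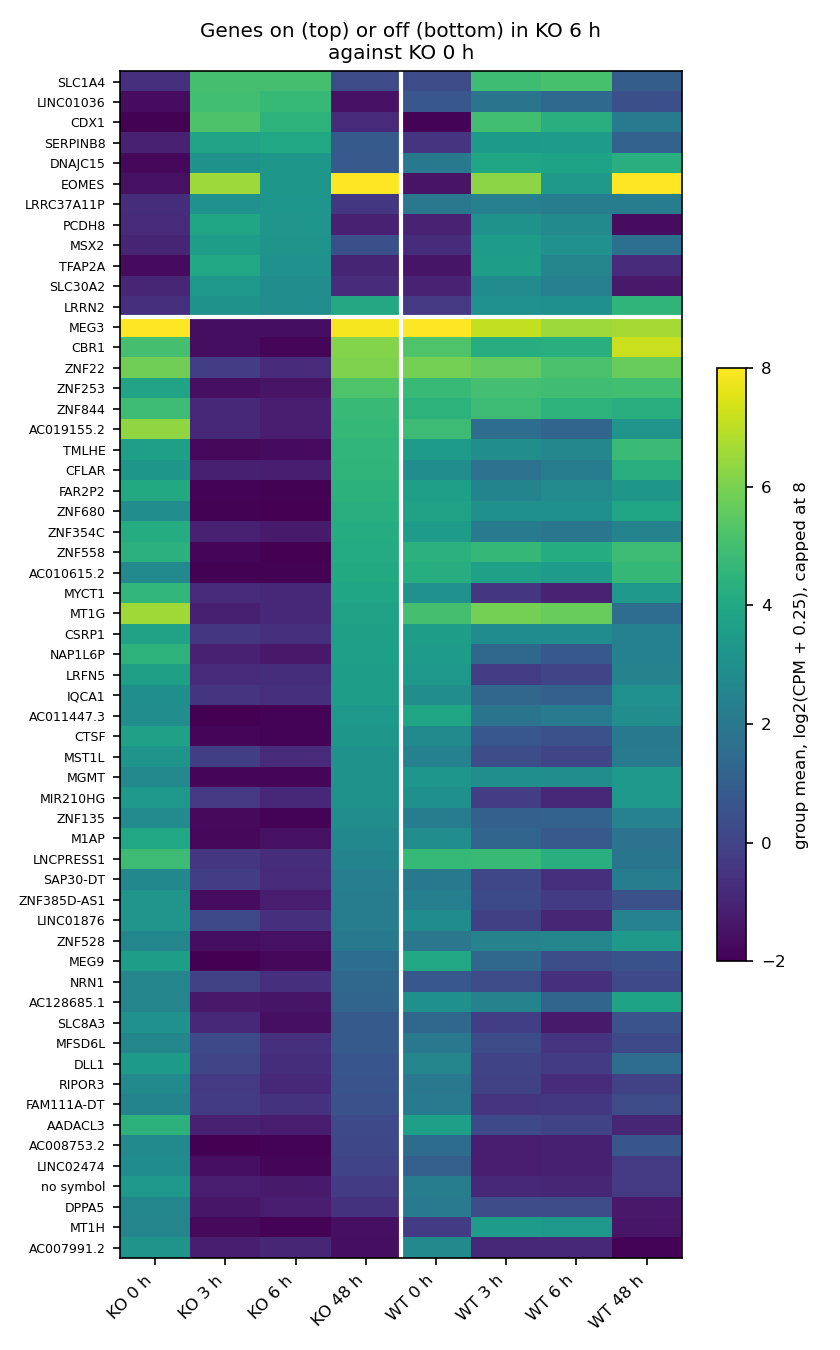
Group means as log2(CPM + 0.25) of the 12 genes that were on (above the white line) and the 46 that were off (below it) in KO 6 h against KO 0 h, over the 4 KO groups and the 4 WT groups in order of time. For 21 of the genes that were off, every KO 3 h library is also at 0.5 CPM or less and every KO 48 h library at 5 CPM or more, and 16 of the 46 average 5 CPM or more in WT 6 h.

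The response was set beside that of WT cells, which shares no library with it. WT 6 h against WT 0 h gave 6175 genes higher (31.1%) and 6149 lower (31.0%). Of the KO calls 77.9%, and of the WT calls 85.9%, were shared in direction, 5320 higher and 5272 lower in both, while 28 were higher in KO and lower in WT and 73 were lower in KO and higher in WT. Across all tested genes the log2 changes of KO and WT correlated at 0.877 (Pearson), as a description over genes, which are not independent replicates. The difference between the changes (KO change minus WT change) was called in 1702 genes (8.58%), 619 above WT (3.12%) and 1083 below WT (5.46%). In 1124 of these the KO change had the same sign as that of WT and was larger, in 166 it was smaller, and in 409 the signs were opposite. The other 3 had no read in KO 6 h or KO 0 h. WT 0 h library 1, which stood apart, had the greatest effect on these counts: without it 2446 genes were above and 2614 below. DESeq2 called 933 above and 1041 below, so that 47.3% of its calls were above, against 36.4% in limma. Of 67 genes named in the text that were called different, CDX4 and TFAP2C not counted, 44 kept the call under all 25 alternatives. Those described next are among them unless said otherwise.

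Genes with a larger rise in KO included LINC01036. It had 25.3, 25.5 and 26.1 CPM in KO 6 h and 2.52, 2.34 and 2.44 CPM in WT 6 h, and 0.0506, 0.125 and 0.0262 CPM in KO 0 h and 4.10, 0.025 and 0.109 CPM in WT 0 h, where library 1 is the one that stood apart (difference 4.52 ± 0.80, adjusted p = 0.000629). CEP85L, a centrosomal gene, averaged 124 CPM in KO 6 h and 17.98 CPM in KO 0 h, and 48 and 37.6 CPM in the same hours of WT (2.21 ± 0.33, adjusted p = 8.72e-05). NPFFR2, a neuropeptide receptor (2.17 ± 0.31, adjusted p = 4.99e-05), TEX13B (2.38 ± 0.38, adjusted p = 0.000213) and KCNAB1, a potassium channel subunit (2.13 ± 0.33, adjusted p = 0.000126), also had larger changes in KO. In the BMP list this held for ID3, by a difference of 1.48 ± 0.35, adjusted p = 0.0101, and ID4, by 0.79 ± 0.18, adjusted p = 0.00581. Both had lower levels in KO 0 h than in WT 0 h, 7.38 and 23.9 CPM for ID3 and 3.85 and 5.49 CPM for ID4, and at 6 h ID3 averaged 292 CPM in KO and 309 CPM in WT. DUSP6 was also lower in KO 0 h than in WT 0 h, with 13.1 and 40.7 CPM, and had 62.7 CPM in KO 6 h and 60.7 CPM in WT 6 h (1.48 ± 0.32, adjusted p = 0.00392). LRRC37A11P, whose difference was 2.81, lost its call with only the groups of the contrast in the fit (adjusted p = 0.0837).

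Genes with a lower change in KO were led by MEG3 (difference -8.82 ± 0.38, adjusted p = 1.15e-13), MT1H (-8.37 ± 0.42, adjusted p = 1.45e-12) and MT1G (-8.20 ± 0.31, adjusted p = 1.28e-14). In WT, MT1G averaged 50.6 CPM at 6 h and 32.6 CPM at 0 h. ZNF558 (-6.38), ZNF844 (-6.16) and CBR1 (-6.01) were next, and none of these was silent in WT 6 h, with 18.01, 22.1 and 18.97 CPM. COL1A2 fell further in KO (-3.62 ± 0.23, adjusted p = 1.48e-10), and ZFP42, at 30.5 ± 0.299 CPM in KO 6 h and 148 ± 3.98 CPM in WT 6 h (SD, n = 3 each), differed by -2.47 ± 0.25, adjusted p = 4.58e-07. In the hypoxia list DDIT4 differed by -2.84 ± 0.27, adjusted p = 1.17e-07, and its level in KO 0 h (272 ± 20.3 CPM) was above that in WT 0 h (82.9 ± 26.7 CPM). In the streak and caudal lists EOMES (0.013 ± 0.19, adjusted p = 0.981), TBXT (0.12 ± 0.19, adjusted p = 0.765), CDX1 (0.27 ± 0.21, adjusted p = 0.487) and CDX2 (0.26 ± 0.34, adjusted p = 0.714) were not called different. None of the 10 tested streak factors was. Of the 6 tested caudal and HOX genes 2 were called below WT and 0 above. CDX4 rose in WT (1.66) and was not called in KO (0.24), a difference of -1.425, adjusted p = 0.00186. HOXB1 differed by -1.13, adjusted p = 0.0170, a call lost with no filter (adjusted p = 0.05865). In the NODAL list 4 of 17 were below and 0 above, and in the WNT target list 1 of 16 and 0.

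**Figure D5:**
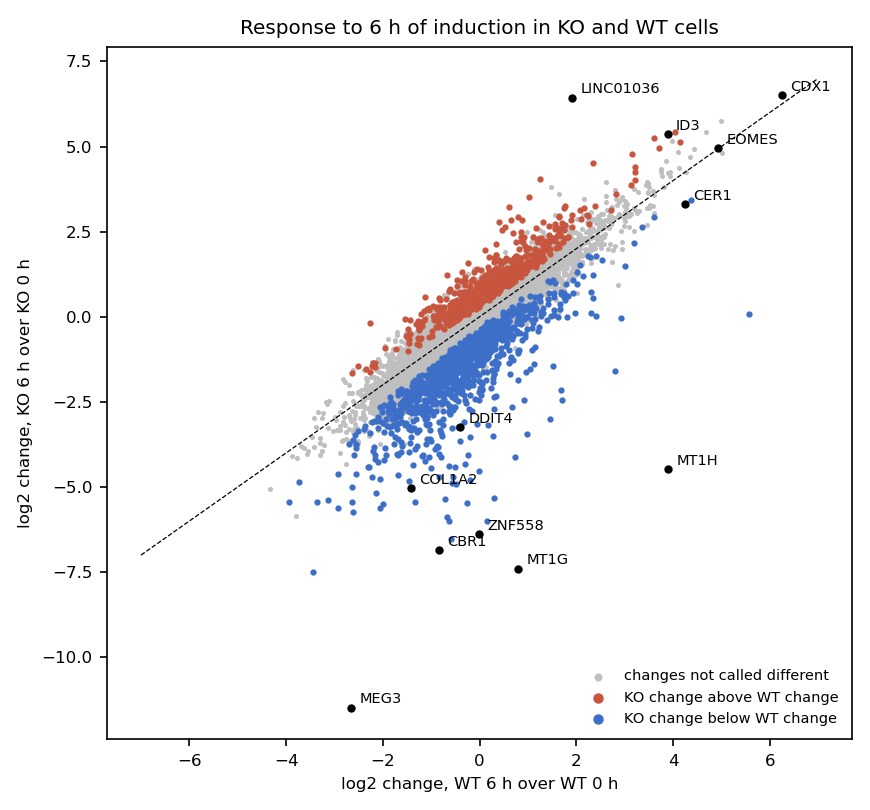
Each point is a tested gene, with its log2 change in WT (6 h over 0 h) on the x axis and in KO on the y axis. Red points had a KO change called above the WT change, blue points below it, and grey points were not called different. Over all 19835 tested genes, with or without a symbol, 619 were above and 1083 below. The dashed line marks equal changes, on or near which CDX1 and EOMES lie.

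Relative to 3 h, 1522 genes were called higher (7.67%) and 2208 lower (11.1%) in KO 6 h. These counts moved with the libraries used. Without KO 3 h library 3 alone they were 1451 and 1552, and without KO 6 h library 3 they were 873 and 1433. With KO 3 h library 3 and the other 2 that stood apart all left out, 3025 and 3313 genes were called. Of the 2376 genes that had risen by a log2 change of at least 1 against 0 h, 454 were higher at 6 h than at 3 h, 188 were lower and 1734 were not called. Of the 3333 that had fallen as much, 773 were lower than at 3 h, 49 higher and 2511 not called. Both comparisons use the KO 6 h libraries, so the values are given side by side and not as independent results.

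Several streak and signalling genes were lower at 6 h than at 3 h. EOMES had 8.86, 11 and 8.86 CPM in KO 6 h and 82.7, 90.9 and 102 CPM in KO 3 h (log2 change -3.20 ± 0.14, adjusted p = 6.68e-13), and CDX2 had 4.95, 5.37 and 3.91 CPM in KO 6 h and 28.3, 33.4 and 42.4 CPM in KO 3 h (-2.77 ± 0.24, adjusted p = 2.99e-08). LEF1 had 5.91, 6.61 and 4.85 CPM in KO 6 h and 25.8, 27.5 and 32.3 CPM in KO 3 h (-2.22 ± 0.18, adjusted p = 7.86e-09). In these 3 genes every KO 6 h library was under every KO 3 h library and above every KO 0 h library. For EOMES and CDX2 the rule that named them required the separation from KO 3 h. TBXT (-1.60 ± 0.14, adjusted p = 2.17e-08), EVX1 (-1.96), NODAL (-1.58 ± 0.23, adjusted p = 4.41e-05) and CER1 (-0.69) were lower as well. The largest negative changes were those of EGR3, an immediate early factor, with 1.97, 2.18 and 2.24 CPM in KO 6 h and 22.5, 19.2 and 36.4 CPM in KO 3 h (-3.38 ± 0.20, adjusted p = 1.08e-10), ZEB2 (-3.07), the receptor gene FZD10 (-3.06) and LINC00461 (-3.01), with EOMES and CDX2. Against 11.1% of all tested genes lower and 7.67% higher than at 3 h, of 16 WNT targets 9 were lower than at 3 h and 0 higher, of 16 BMP targets 10 and 2, and of 27 immediate early genes 18 and 3. Counts of gene lists against 3 h, here and below, were not repeated without KO 3 h library 3, which stood apart. ID2 was higher at 6 h (0.78 ± 0.11, adjusted p = 2.93e-05) and ID4 lower (-1.04 ± 0.12, adjusted p = 3.16e-06).

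Other genes were higher at 6 h than at 3 h. MYOCD, a coactivator of smooth and cardiac muscle genes, had 7.59, 6.18 and 7.83 CPM in KO 6 h and 1.77, 1.05 and 1.77 CPM in KO 3 h (2.12 ± 0.35, adjusted p = 0.000174), and DOCK4, an activator of small GTPases, 99.2, 105 and 95.4 CPM in KO 6 h and 29.6, 26.2 and 39.2 CPM in KO 3 h (1.71 ± 0.15, adjusted p = 4.37e-08). In both the 6 h libraries were above the 3 h libraries, which the rule that named these genes required. NRXN3, a neurexin, was higher at 6 h than at 3 h (1.79 ± 0.18, adjusted p = 1.98e-07) and was not called against KO 0 h, at 4.88, 4.79 and 5.55 CPM in KO 6 h and 6.10, 5.34 and 4.93 CPM in KO 0 h (-0.015 ± 0.18, adjusted p = 0.948). DHRS2 (1.49), GABPB2 (1.40) and PEX5L (1.40) complete the 6 largest positive changes. Cholesterol synthesis genes had 12 of 21 called higher and 0 lower, where 7.67% and 11.1% of all tested genes were called, with HMGCS1 at 590.5, 577 and 605 CPM in KO 6 h and 330.3, 308 and 251 CPM in KO 3 h (1.04 ± 0.13, adjusted p = 7.19e-06). DDIT4 was lower than at 3 h, with 27.1, 29.4 and 24.7 CPM in KO 6 h and 152, 159 and 156 CPM in KO 3 h (-2.48 ± 0.19, adjusted p = 4.92e-09).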

How the data were processed

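Messenger RNA libraries were made with a stranded TruSeq kit, per the labels. Gene values were deposited as CPM, made by the authors from reads assigned to genes and not divided by length. Transcript values were deposited as raw counts. The submitters' processing notes name DESeq2 and build hg38, and the aligner, the annotation and the use of strand in counting are not given in the sources used here. Column names of the gene table stand 1 cell away from their values. Once moved back, each of 24 columns matched best the transcript counts of its own name (24 of 24, and 0 as the header stands; Pearson r 0.799 to 0.982 over 2337 genes). Symbols came from a table of gene names and, where that gave none, from GENCODE release 29. Together they gave a symbol to 90.5% of the identifiers. Identifier versions were the same as in GENCODE release 29 for 51.6%.

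CPM steps gave whole reads for 100% of values within 0.1 read. Genes were kept by the edgeR 4.0.16 filterByExpr rule on these reads (at least 10 reads, 15 in total), CPM was divided by TMM factors, 0.25 was added, and log2 values of all 24 libraries in 8 groups were fitted with limma 3.58.1 (trend, R 4.3.3) and adjusted by Benjamini-Hochberg over 19835 genes. The pseudocount understates the change of low genes. On the reads, edgeR called 6600 genes higher and 6892 lower and DESeq2 1.42.0 called 6510 and 6896 in KO 6 h against KO 0 h. A gene was off at 0.5 CPM or less in every 6 h library and 5 CPM or more in every 0 h library, and on in the opposite case. Counting intervals are exact and cover counting error only. The fits were tested on simulated data.

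The members and the 32 gene lists were chosen with earlier results of these data known. Genes were named by a rule: RBPMS and RBPMS2; the 12 largest called changes each way against KO 0 h and the 6 largest each way in the other comparisons, with a log2 change of at least 1, a group mean of at least 5 CPM and, between groups, no overlap; and the 4 or fewer genes with the lowest adjusted p in each list. ADM, APCDD1, AURKA, AURKB, AXIN2, BUB1, CCND2, CDX4, FGFR4, GSC, HES4, MESP1, MESP2, MSGN1, NKD2, PLK1, RNF43, TFAP2C, TOP2A and VLDLR are outside it and were chosen after their values were seen. A few genes are not reported here. Alternatives changed the factors, pseudocount, filter, test, libraries in the fit, replicate block and weights, or left out libraries.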

Additional observations from a re-analysis of the deposited data

Results flagged for a closer look

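The genes given here had a change from 0 h to 6 h that differed between KO and WT cells by the interaction term of the limma fit, under every one of 25 alternatives. Each value is the KO change minus the WT change on the log2 scale, and the levels behind the main ones stand in the text above. The KO change was lower by more than 3 in MEG3 (-8.82), MT1H (-8.37), MT1G (-8.20), ZNF558 (-6.38), ZNF844 (-6.16), CBR1 (-6.01), ZNF22 (-5.94), FAR2P2 (-5.37), ZNF562 (-5.19), COL1A2 (-3.62), CTSF (-3.58), NNAT (-3.32) and NAP1L6P (-3.11). It was lower by 1 to 3 in DDIT4 (-2.84), ZFP42 (-2.47), DLL3 (-1.90), DPPA2 (-1.80), COL1A1 (-1.77), ANKRD37 (-1.60), DLL1 (-1.47), EGR3 (-1.26), PFKFB4 (-1.17), DHRS3 (-1.16), KDR (-1.13) and PPAN (-1.03), and by less than 1 in VIM (-0.91), TDGF1 (-0.56) and ESRP1 (-0.53). The KO change was higher by more than 1 in LINC01036 (4.52), TEX13B (2.38), CEP85L (2.21), NPFFR2 (2.17), KCNAB1 (2.13), DUSP6 (1.48), ID3 (1.48), CDH6 (1.40), PEX5L (1.31), LRRTM3 (1.27), IER3 (1.04) and TIGAR (1.02), and by less in HMGCS1 (0.83), MYL9 (0.82), IDI1 (0.80) and ID4 (0.79). MT1G and MT1H are near-identical neighbours and FAR2P2 and NAP1L6P are pseudogenes, so their values are uncertain.

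The deposited transcript counts, which enter no test, gave a signal outside the gene-level comparison. Of 20 RBPMS transcripts 3 are given because they were higher in KO 6 h, while the gene as a whole fell. The RBPMS-209 transcript had 64, 58 and 51 counts in KO 6 h (173 in all) and 27, 36 and 27 counts in KO 0 h. It had 60, 41 and 26 in KO 3 h and 14, 15 and 20 in KO 48 h, and 7, 24 and 8 in WT 6 h and 1, 20 and 25 in WT 0 h. RBPMS-207 had 45, 38 and 55 counts in KO 6 h (138 in all) and 14, 12 and 13 in KO 0 h. It had 37, 45 and 23 in KO 3 h and 5, 5 and 4 in KO 48 h, and 14, 11 and 12 in WT 6 h and 16, 9 and 17 in WT 0 h. RBPMS-219 had 19, 14 and 14 counts in KO 6 h (47 in all) and 0, 0 and 0 in KO 0 h. It had 25, 14 and 13 counts in KO 3 h and 0, 1 and 2 in KO 48 h. In WT it had 0, 1 and 0 counts at 6 h and 0, 1 and 0 at 0 h. Other transcripts were lower in every KO 6 h library, among them RBPMS-211, with 143, 100 and 93 counts in KO 6 h and 519, 473 and 396 in KO 0 h, and RBPMS-202, with 22, 13 and 16 in KO 6 h and 122, 86 and 65 in KO 0 h. Groups here have 3 libraries, so none was tested for an outlying library.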

How the results depend on the processing

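Under 19 alternatives the counts of genes called in KO 6 h against KO 0 h moved by less than 1.5 times, with 6215 to 6287 higher and 6523 to 6660 lower when 1 library was left out. Of 148 named genes called there 145 kept the call throughout, and EGR3, HOXB1 and RBPMS2 lost it under at least 1. Upper-quartile factors shifted the median change of all genes to -0.12. With the replicate number as a block 6597 genes were higher and 6944 lower, and 587 and 1046 differed between KO and WT. Same-numbered libraries of KO 6 h and KO 0 h did not deviate together (correlations -0.0733, 0.0157, -0.0743), so the numbers were not read as pairs. The difference between the KO and WT changes was the least stable: 933 genes were above with DESeq2, 2310 above and 2805 below with array weights, 4114 and 3916 without WT 0 h library 1, KO 3 h library 3 and WT 48 h library 3, and 370 to 2446 above and 807 to 2614 below when 1 library was left out. The cause was not tested. The highest values came without WT 0 h library 1 and the lowest without KO 6 h library 3. The sign of this difference turned in 2 of the named genes: for DNAJC15 it was 1.17, -0.64 without the 3 libraries that stood apart, and from -0.64 without WT 0 h library 1 to 2.12 when 1 library was left out, and for THY1 it was 0.076, -0.34 without the 3 libraries that stood apart, and from -0.34 without WT 0 h library 1 to 0.35 when 1 library was left out. The cause was not tested. Against KO 3 h, 929 genes were higher and 1220 lower with only those groups in the fit, 3282 and 3568 with array weights, 3025 and 3313 without the 3 libraries that stood apart, and 873 to 1609 and 1433 to 2319 when 1 library was left out, lowest without KO 6 h library 3. Of 80 named genes called against KO 3 h 52 kept the call in all 19 alternatives. The genes called in the same direction in KO and WT numbered 9933 to 10610, and the genes that were off 46 to 50 and on 12 to 16, when 1 library was left out. Alternatives for the on and off genes and for the overlap were chosen after seeing the data. Depth limits the values under the floor of 3 reads per library.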
